A study of Danio rerio with 9 samples.

Results

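The genes described here are the components of the Wnt signalling pathway in zebrafish Müller glia (MG), the radial glia of the retina. They were chosen by gene name: every gene ID whose symbol was that of a Wnt ligand, the ligand carrier Wls, an R-spondin, an Lgr receptor, a Frizzled, Lrp5 or Lrp6, the ubiquitin ligases Znrf3 and Rnf43, a Dkk or Sfrp inhibitor, a Dishevelled, an Axin, β-catenin or a Tcf/Lef factor. This gave 70 of the 23707 gene IDs in the count table. None of the 70 carried the symbol Rnf43 or Lgr5. Symbols are written as the names table spells them, so that many carry the human form, and an Ensembl ID is added where 2 zebrafish genes have the same symbol, which was so for 20 of the 70.

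GFP+ MG were sorted from dissociated retinas of *gfap:GFP* zebrafish, and polyA RNA was sequenced in 9 libraries. Wild-type (Wt) MG came from uninjured retinas (3 libraries) or from retinas 2 days after needle poke injury (dpi, 3 libraries), and *mych*-/- MG came from injured retinas at 2 dpi (3 libraries). According to the study's methods the fish were adults of both sexes, each preparation drew on pooled retinas, and the *mych*-/- line carries a germline edit in an exon of *mych*, a Myc family transcription factor gene. All 9 libraries carry the *gfap:GFP* transgene, and no uninjured *mych*-/- MG are among them, so that a difference between the genotypes at 2 dpi cannot be told apart from one already present before injury. Whether replicates were separate pools of fish is not given in the labels, so the p-values measure the spread between these libraries.

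In the canonical Wnt pathway a secreted ligand binds a Frizzled receptor and an Lrp5/6 co-receptor, Dishevelled is recruited, and the Axin complex that marks β-catenin for degradation is disabled. β-catenin then enters the nucleus and acts with Tcf/Lef factors on target genes such as *axin2*. Dkk1 proteins block the co-receptor and Sfrp proteins bind the ligands, while R-spondins protect Frizzled from removal by Znrf3 and Rnf43. Wnt and β-catenin signalling is known for its part in MG proliferation during zebrafish retina regeneration.

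Total counts ranged from 46835977 to 77133615 per library. *mych* measured 20, 11 and 25.9 CPM (counts per 1000000 counts of the library, with TMM scaling) in uninjured Wt MG, 180, 233 and 319 at Wt 2 dpi and 145, 197 and 158 in *mych*-/- at 2 dpi. The *mych* transcript was thus still counted in the mutant libraries, where the log2 difference from Wt 2 dpi was -0.55 ± 0.30 (SE), and a total count over an edited transcript does not check the genotype label. The 11 MG marker genes were detected and summed to 10400 to 17300 CPM in uninjured Wt, 15000 to 23400 at Wt 2 dpi and 13200 to 35700 in *mych*-/-. Markers of retinal neurons were present too and were lower after injury: the 14 rod genes summed to 14400 to 28200 CPM in uninjured Wt against 1270 to 3490 at Wt 2 dpi and 1510 to 3090 in *mych*-/-. In the same order, the 11 cone genes summed to 25000 to 41300, 6000 to 12300 and 9760 to 11400 CPM. The 9 amacrine and horizontal cell genes summed to 3820 to 4560, 730 to 1730 and 1200 to 2410 CPM. The 7 cell division genes moved the other way, from a sum of 44.8 to 52.8 CPM in uninjured Wt to 1760 to 2460 at Wt 2 dpi and 756 to 1400 in *mych*-/-. In sorted bulk samples such as these, fewer cells of one type and less RNA per cell cannot be told apart.

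Of the 70 Wnt genes, 62 had enough counts to be tested and 8 did not: *WNT16*, *wnt2*, *WNT4*, *wnt4b*, *WNT6*, *WNT7A* ENSDARG00000002483, *RSPO4* and *FZD9* ENSDARG00000035185. In these 8 no library passed 0.683 CPM. Counts were present in all 9 libraries for 40 of the 70 genes, and 27 genes had 0 counts in 1 library beside at least 20 counts in another library of the same group. The Lgr and Lrp receptors, the Dishevelleds, Axins, β-catenin and the Tcf and Lef factors had counts in every library, as had all Frizzleds but *FZD9* ENSDARG00000035185 and *FZD8* ENSDARG00000038569.

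**Figure D1:**
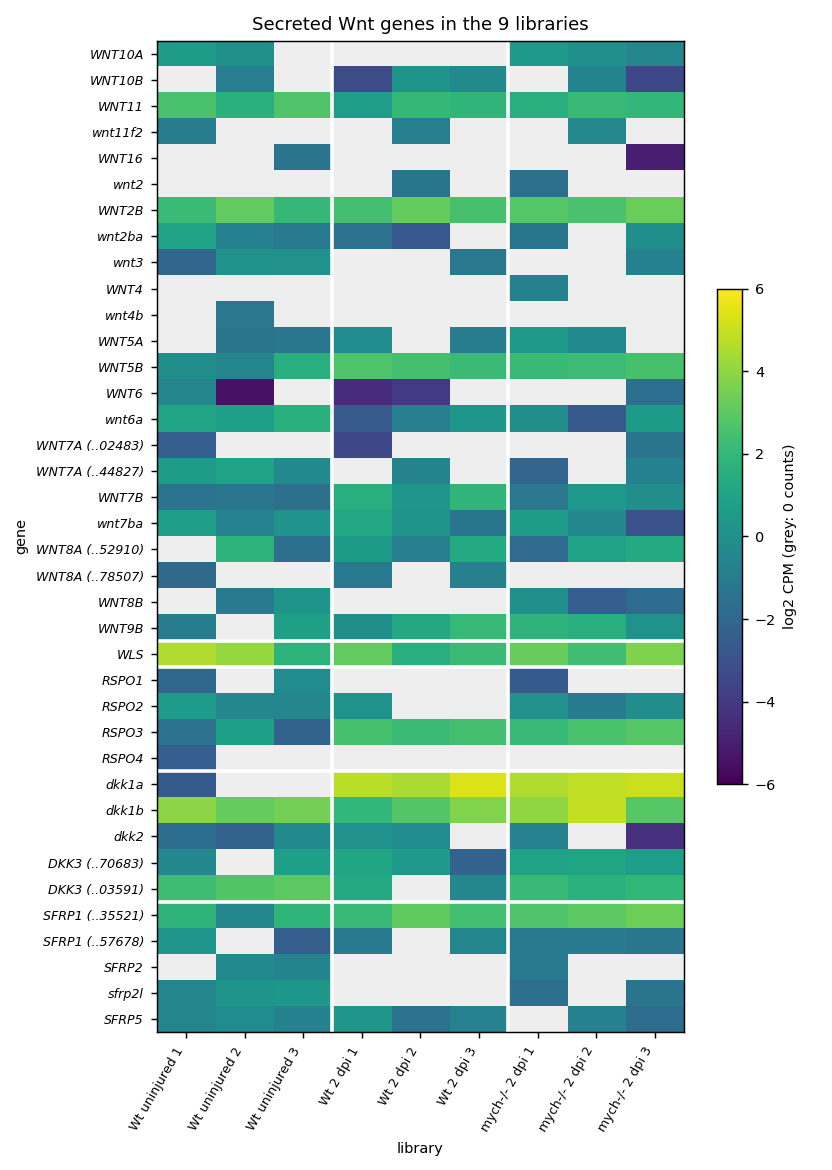
Level of each secreted Wnt gene and of WLS in each of the 9 libraries, as log2 CPM on the colour scale, with libraries on the x axis, genes on the y axis and white lines between groups and roles; grey cells hold 0 counts and digits after a symbol end the Ensembl ID. dkk1a is at 0.166 CPM in 1 uninjured Wt library, grey in the other uninjured ones and at 22.5 to 39.9 CPM in the 6 libraries at 2 dpi, and most ligand rows hold grey cells.

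To ask how injury changed the pathway, Wt MG at 2 dpi were compared with uninjured Wt MG. Calls required a log2 fold change beyond 0.5 in either direction together with an adjusted p no greater than 0.05 in edgeR's quasi-likelihood test. Of the 62 Wnt genes tested, 21 (33.9%) were called, 15 higher and 6 lower after injury. Over all 20484 genes tested, 42.1% were called, 22.3% higher and 19.8% lower. The median log2 change was 0.14 over the Wnt genes and -0.02 over all genes. The rises were 2 ligands, 1 R-spondin and 1 of its receptors, 4 Frizzleds, *ZNRF3*, 1 Dkk inhibitor, 2 Dishevelleds, β-catenin and 2 Tcf factors, while the falls were in 2 ligands, 2 Frizzleds, 1 Sfrp inhibitor and 1 Dishevelled. Libraries of the groups did not overlap for 27 of the 62 genes, 15 above and 12 below, against 28.7% and 27.9% of all genes. The calls of 12 genes held in every alternative run, each leave-one-out included: *RSPO3*, *FZD2*, *FZD3* ENSDARG00000021664, *fzd6*, *FZD7* ENSDARG00000027589, *ZNRF3*, *dkk1a*, *DVL1* ENSDARG00000055552, *dvl2*, *DVL3* ENSDARG00000015707, *CTNNB1* and *TCF7L1*.

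Of 17 ligands tested, 2 rose and 2 fell, where 22.3% of all genes were called higher and 19.8% lower. *WNT5B*, a ligand best known for signalling without β-catenin, measured 0.941, 0.690 and 2.94 CPM in uninjured Wt, 6.52, 5.43 and 4.5 at Wt 2 dpi and 4.40, 4.69 and 5.62 in *mych*-/-. All 6 libraries at 2 dpi lay above the uninjured ones, and the log2 rise with injury was 1.84 ± 0.55 (SE; edgeR adjusted p = 0.0180). *WNT7B* measured 0.369, 0.404 and 0.335 CPM in uninjured Wt, 2.89, 1.18 and 3.64 at Wt 2 dpi and 0.418, 1.32 and 0.945 in *mych*-/-. All Wt 2 dpi libraries lay above the uninjured ones, 2 of the 3 mutant libraries lay between these groups, and the log2 rise was 2.79 ± 0.95 (edgeR adjusted p = 0.0319).

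*WNT10A* and *WNT8B* had no counts in any of the 3 Wt 2 dpi libraries, and both were called lower. In uninjured Wt MG *WNT10A* measured 1.55, 1.02 and 0 CPM, and *WNT8B* 0, 0.476 and 1.15 CPM, so that each also had an uninjured library at 0. Against a floor of 3 counts in each library, the mean level at Wt 2 dpi was 19.5-fold lower for *WNT10A* and 12.3-fold lower for *WNT8B*. These folds take no account of the spread between libraries. The fitted log2 changes were -8.75 (95% interval -14.53 to -2.97) and -8.09 (-14.57 to -1.62) (edgeR adjusted p = 0.0206 and 0.0465). Without the first uninjured library the *WNT10A* call was lost (adjusted p = 0.0512), and the *WNT8B* call was lost on leaving out any library but the first uninjured one (0.0554 to 0.117). The *WNT7B* call was lost without any of the uninjured libraries or without the first or the third Wt 2 dpi library (0.0706 to 0.118), and *WNT5B* without the first or second uninjured or the first Wt 2 dpi library (0.0508 to 0.0587). Without the third uninjured library the *WNT5B* rise was 2.74.

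The other 13 ligands tested were not called. Among them *WNT11*, at 3.09 to 6.4 CPM in uninjured Wt, and *WNT2B*, at 3.99 to 8.56 CPM, had counts in every library. Their log2 changes with injury were -0.75 (95% interval -1.81 to 0.30) and 0.24 (-0.62 to 1.11). *WLS*, which carries Wnt ligands to the cell surface, measured 23.5, 17.2 and 3.37 CPM in uninjured Wt, 8.76, 2.91 and 4.5 at Wt 2 dpi and 9.30, 5.0 and 13 in *mych*-/-. The third uninjured library lay among the injured ones, and the log2 difference of -1.45 ± 0.64 was not called (edgeR adjusted p = 0.0893), although DESeq2's Wald test called it (adjusted p = 0.0475).

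Among the R-spondins, their receptors and the ligase they act on, 3 of 6 genes tested rose, where 22.3% of all genes did. *RSPO3* measured 0.351, 1.74 and 0.223 CPM in uninjured Wt, 5.64, 4.53 and 5.49 at Wt 2 dpi and 4.18, 5.90 and 7.20 in *mych*-/-. Injured and uninjured libraries were fully separate, and the log2 rise was 2.77 ± 0.70 (edgeR adjusted p = 0.00702), or 4.18 without the second uninjured library. *RSPO1* and *RSPO2* were low, with no library above 1.49 CPM, and were not called. Of the R-spondin receptors, *LGR4* rose from 18.5, 23.0 and 17.7 CPM to 36.1, 36.8 and 22.7, with 38.6, 29.9 and 33.7 in *mych*-/-. The third Wt 2 dpi library lay within the uninjured range, the log2 rise was 0.69 ± 0.23 (edgeR adjusted p = 0.0321), and the call was lost without the first or the third uninjured or the first or second Wt 2 dpi library (0.0847 to 0.118). *ZNRF3*, the membrane ubiquitin ligase that R-spondins inhibit, measured 17.1, 10.3 and 8.08 CPM in uninjured Wt, 33.3, 39.5 and 28.2 at Wt 2 dpi and 33.4, 54.4 and 27.1 in *mych*-/-. It rose by 1.51 ± 0.33 on the log2 scale with no overlap between libraries (edgeR adjusted p = 0.00299).

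Of 13 Frizzled receptor genes tested, 4 rose and 2 fell, where 22.3% of all genes were called higher and 19.8% lower. *FZD2* measured 1.29, 2.52 and 1.88 CPM in uninjured Wt, 13, 5.44 and 8.35 at Wt 2 dpi and 12.1, 11 and 7.48 in *mych*-/-. *fzd6* measured 7.97, 6.99 and 14.2 CPM, then 28.2, 50.4 and 39.1, and 31.8, 38.5 and 27.4 in the same order. *FZD7* ENSDARG00000027589 measured 10.6, 7.21 and 7.45 CPM, then 25.1, 25.1 and 18.5, and 28.5, 25.1 and 18.3. In each of the 3 genes every injured library lay above every uninjured one. The log2 rises at Wt 2 dpi were 2.23 ± 0.42 for *FZD2*, 2.01 ± 0.31 for *fzd6* and 1.44 ± 0.27 for *FZD7* (edgeR adjusted p = 0.00122, 0.000348 and 0.00107). The second *FZD7* gene, ENSDARG00000060004, overlapped between the groups and was not called (0.93, 95% interval 0.02 to 1.84). *FZD5*, a receptor of the developing and adult retina, was at 40.0, 50.1 and 69.1 CPM in uninjured Wt and 103, 96.9 and 74.0 at Wt 2 dpi. Its log2 rise was 0.78 ± 0.22 (edgeR adjusted p = 0.0131), between 0.65 and 1.02 in all alternatives, and the call was lost without the first uninjured library (0.0526).

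*FZD3* ENSDARG00000021664, which acts in axon guidance and planar cell polarity, went down. It measured 63.7, 66.7 and 62.0 CPM in uninjured Wt, 42.0, 23.5 and 24.3 at Wt 2 dpi and 49.0, 32.7 and 57.5 in *mych*-/-. All injured libraries were below the uninjured ones, which differed little among themselves, and the log2 change at Wt 2 dpi was -1.1 ± 0.27 (edgeR adjusted p = 0.00572). The second *FZD3* gene, ENSDARG00000058692, was also lower at Wt 2 dpi without overlap but was not called (-0.8, 95% interval -1.55 to -0.06). *FZD4* measured 3.75, 2.26 and 3.89 CPM in uninjured Wt, 0.0782, 0.610 and 0.641 at Wt 2 dpi and 2.34, 1.31 and 1.02 in *mych*-/-. The mutant libraries lay above all Wt 2 dpi libraries and 1 of them within the uninjured range. The log2 change with injury was -2.89 ± 0.89 (edgeR adjusted p = 0.0210), and the call was lost without the first or the third uninjured library (0.0573 and 0.0642). The co-receptor genes were not called: *LRP5* differed by 0.50 (95% interval -0.11 to 1.1) and *LRP6* by -0.51 (-0.95 to -0.07), although the *LRP6* libraries did not overlap and DESeq2 called it lower (adjusted p = 0.0439).

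Among the secreted inhibitors, and among all 62 Wnt genes tested, the gene with the largest rise was *dkk1a*. It had 9 counts in 1 uninjured Wt library and 0 in the other two, or 0.166, 0 and 0 CPM, against 27.0, 22.5 and 39.9 CPM at Wt 2 dpi and 23.5, 29.3 and 33.4 in *mych*-/-. The ratio of summed counts, scaled to library size, was 517 at Wt 2 dpi, with a counting interval of 272 to 1130, and 510 in *mych*-/- (268 to 1120). These intervals cover counting error only. The fitted log2 rise was 8.99 ± 0.75 (edgeR adjusted p = 5.27e-06), 8.31 without the third uninjured library and 13.89 without the first, when all uninjured counts are 0 and the fitted value is no bound. The paralog *dkk1b* behaved differently, at 15.3, 9.04 and 11.1 CPM in uninjured Wt, 3.86, 6.90 and 13.3 at Wt 2 dpi and 16.1, 29.8 and 7.47 in *mych*-/-. Its groups overlapped, and the log2 change with injury was -0.56 (95% interval -1.69 to 0.57). Reads of *dkk1a* thus made up 0 to 1.08% of the counts of the pair in uninjured Wt, 75.0 to 87.5% at Wt 2 dpi and 49.6 to 81.7% in *mych*-/-. These shares restate the rise of *dkk1a*. An exact permutation test gave p = 0.1 for each injured group against uninjured Wt and 0.3 between the genotypes. With 3 against 3 libraries it cannot give a p below 0.1, so no conclusion is drawn from it.

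Other genes of the Dkk and Sfrp families differed in direction. *sfrp2l* measured 0.701, 1.14 and 1.28 CPM in uninjured Wt and had no counts in the Wt 2 dpi libraries, with 0.334, 0 and 0.378 CPM in *mych*-/-. Against the floor of 3 counts in each library, its mean level at Wt 2 dpi was 23.6-fold lower than in uninjured Wt. The fitted log2 change was -9.03 (95% interval -15.26 to -2.8, edgeR adjusted p = 0.0251). This call was lost without the second or the third uninjured or the second or the third Wt 2 dpi library (0.0524 to 0.0580). *SFRP1* ENSDARG00000035521 was at 3.53, 0.737 and 3.64 CPM in uninjured Wt, 4.35, 8.29 and 5.24 at Wt 2 dpi and 6.42, 7.93 and 10.3 in *mych*-/-. All injured libraries were above the uninjured ones, but the change at Wt 2 dpi was not called (1.17, 95% interval 0.00 to 2.35). *DKK3* ENSDARG00000103591 was at 4.85, 6.64 and 7.87 CPM in uninjured Wt, 2.53, 0 and 0.735 at Wt 2 dpi and 4.18, 3.19 and 3.86 in *mych*-/-. Its 3 groups were fully ordered, with Wt 2 dpi lowest and *mych*-/- between the other groups, and its log2 change with injury of -2.57 ± 1.1 was called by DESeq2 (adjusted p = 0.0325) and not by edgeR (adjusted p = 0.0829).

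**Figure D2:**
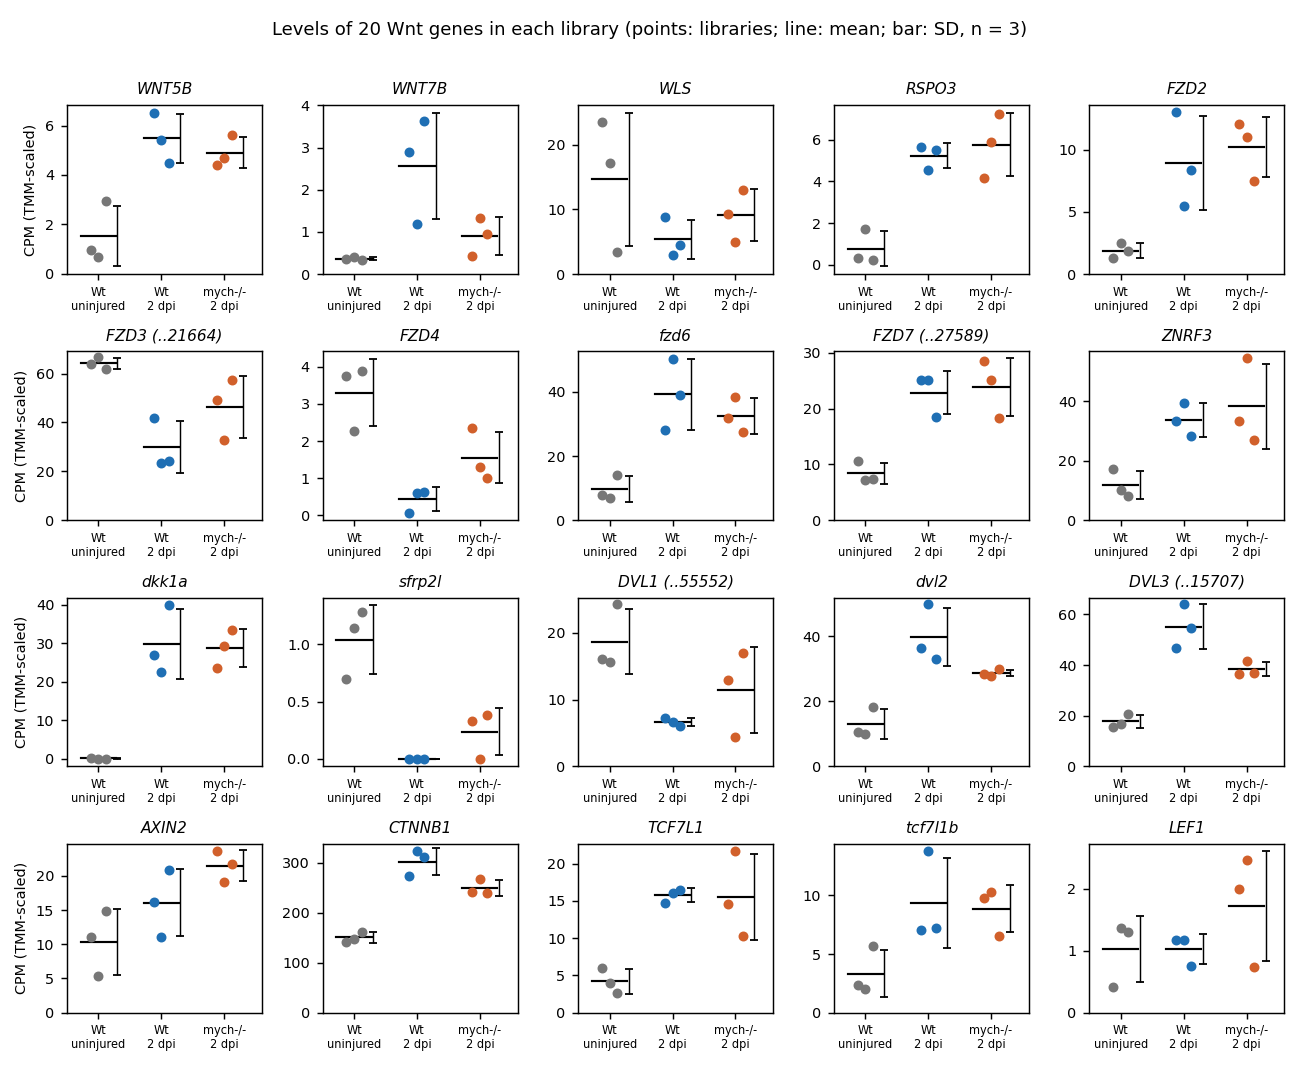
CPM of 20 Wnt genes (y axes, each including 0 and on its own scale) in uninjured Wt, Wt 2 dpi and mych-/- 2 dpi MG (x axes); points are libraries, the horizontal line is the mean and the bar the SD of 3 libraries. CTNNB1 lies at 142 to 162 CPM in uninjured Wt and 240 to 324 CPM in the 6 libraries at 2 dpi. FZD4 is lowest in the Wt 2 dpi libraries, and sfrp2l is at 0 in these and in 1 mutant library.

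Inside the cell, the Dishevelled genes moved apart. *DVL3* ENSDARG00000015707 measured 15.7, 16.9 and 20.7 CPM in uninjured Wt, 46.6, 64.2 and 54.5 at Wt 2 dpi and 36.6, 41.5 and 36.8 in *mych*-/-. *dvl2* measured 10.7, 10 and 18.4 CPM, then 32.9 to 49.9 at Wt 2 dpi and 27.9 to 29.9 in *mych*-/-. In both genes the Wt 2 dpi libraries were the highest, the mutant ones came next and the uninjured ones were lowest, with no overlap. The log2 rises at Wt 2 dpi were 1.63 ± 0.20 for *DVL3* and 1.61 ± 0.27 for *dvl2* (edgeR adjusted p = 6.42e-05 and 0.000571). *DVL1* ENSDARG00000055552 went the other way, from 16.1, 15.7 and 24.3 CPM to 7.24, 6.66 and 6.07, with 12.9, 4.36 and 17.0 in *mych*-/-. It fell by 1.49 on the log2 scale with injury (SE 0.42, edgeR adjusted p = 0.0129). The second *DVL1* gene, ENSDARG00000010515, was also lower at Wt 2 dpi without overlap but was not called (-1.01, 95% interval -2.53 to 0.51). The second *DVL3* gene, ENSDARG00000103462, stayed within 9.45 to 18.2 CPM in all 9 libraries and was not called. The count ratio of the first to the second *DVL3* gene was 0.863 to 1.41 in uninjured Wt, 3.26 to 5.77 at Wt 2 dpi and 2.11 to 3.25 in *mych*-/-, so that none of the 3 groups overlapped another, although the mutant and Wt injured groups nearly met.

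*CTNNB1*, which encodes β-catenin, measured 142, 148 and 162 CPM in uninjured Wt, 273, 324 and 311 at Wt 2 dpi and 242, 268 and 240 in *mych*-/-. The spread within groups was small, the 3 groups did not overlap, and the log2 rise with injury was 1.01 ± 0.17 (edgeR adjusted p = 0.000523). *AXIN1*, the scaffold of the degradation complex, was not called (-0.23, 95% interval -0.71 to 0.25). *AXIN2*, the inducible Axin and a widely used readout of β-catenin signalling, measured 11, 5.28 and 14.8 CPM in uninjured Wt, 16.2, 11.1 and 20.9 at Wt 2 dpi and 23.7, 19.1 and 21.7 in *mych*-/-. The Wt groups overlapped and the log2 difference of 0.63 (95% interval -0.15 to 1.41) was not called (edgeR adjusted p = 0.181).

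Of the Tcf and Lef factors, the *tcf7l1* pair, whose products are mostly known as repressors of Wnt targets, rose. *TCF7L1* measured 6.0, 3.93 and 2.59 CPM in uninjured Wt, 14.7, 16.1 and 16.5 at Wt 2 dpi and 14.5, 21.7 and 10.3 in *mych*-/-. *tcf7l1b* measured 2.33, 2.02 and 5.65 CPM, then 7.05, 13.8 and 7.21, and 9.75, 10.3 and 6.57. Every injured library was above every uninjured one in both genes. The log2 rises at Wt 2 dpi were 1.92 ± 0.36 for *TCF7L1* and 1.49 ± 0.46 for *tcf7l1b* (edgeR adjusted p = 0.00132 and 0.0205), and the *tcf7l1b* call was lost without the first or second uninjured or the second Wt 2 dpi library (0.0679 to 0.101). Across the alternatives the *tcf7l1b* rise lay between 1.09 and 2.11, the latter without the third uninjured library. *TCF7L2* lay at 15.4 to 19.7 CPM in uninjured Wt, 10.5 to 14 at Wt 2 dpi and 10.6 to 11.3 in *mych*-/-. Its libraries did not overlap, but the log2 change of -0.45 (95% interval -0.96 to 0.06) was not called. *TCF7* and *LEF1* were not called either. *LEF1*, an activating partner of β-catenin, was at 0.406 to 1.36 CPM in uninjured Wt and 0.751 to 1.17 CPM at Wt 2 dpi, a log2 difference of 0.01 with a wide 95% interval of -1.98 to 2.00. The *tcf7l1* pair made up 23.9 to 29.4% of Tcf and Lef counts in uninjured Wt, 54.5 to 65.4% at Wt 2 dpi and 51.9 to 63.5% in *mych*-/-.

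**Figure D3:**
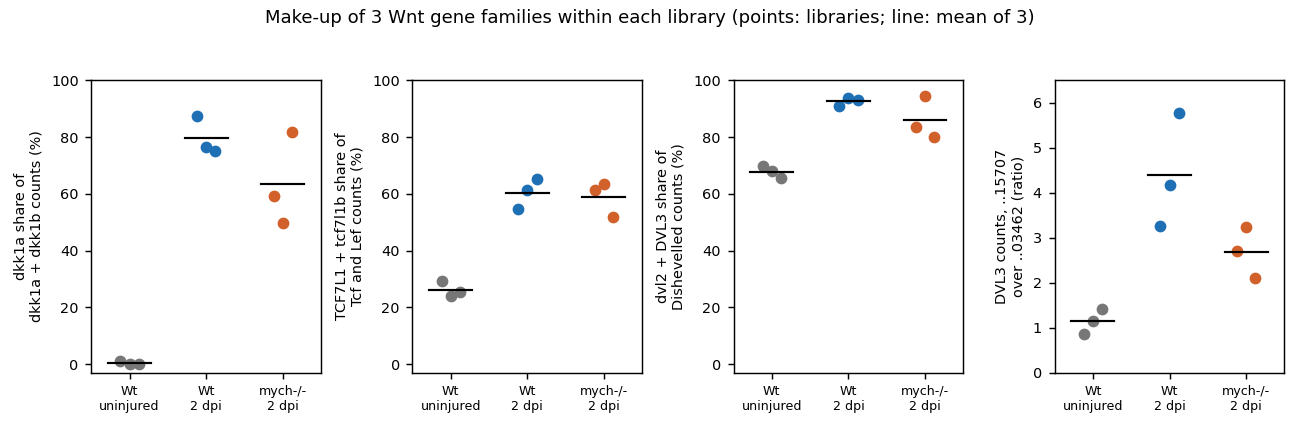
Share of counts, in percent, that dkk1a takes of the dkk1 pair, that TCF7L1 and tcf7l1b take of Tcf and Lef genes and that dvl2 and the DVL3 pair take of Dishevelled genes, and the count ratio of the DVL3 genes (y axes), by group (x axes); points are libraries and lines are means of 3. All 4 measures are higher in every injured library than in every uninjured one, and the DVL3 ratio is higher in Wt 2 dpi (3.26 to 5.77) than in mych-/- (2.11 to 3.25).

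Beside the 6 Wnt genes that fell stand the neuron markers given above. Of the marker genes tested, 11 of 13 for rods, 11 of 11 for cones, 9 of 9 for bipolar cells and 8 of 9 for amacrine and horizontal cells were called lower at Wt 2 dpi. The part of these cells in the lower levels of *FZD3*, *FZD4*, *DVL1*, *WNT10A*, *WNT8B* and *sfrp2l* was not tested. Higher with injury were the cell division genes (7 of 7) and 6 of 11 MG marker genes, while 1 MG marker was lower. Of 12 microglia and macrophage genes 5 were called higher and 1 lower. They summed to 25.9 to 78.4 CPM in uninjured Wt and 70.6 to 89.5 at Wt 2 dpi. Of 6 endothelium and pericyte genes tested 2 were called higher and 1 lower, with sums of 214 to 300.0 and 227 to 378 CPM. In *mych*-/- against uninjured Wt 6 of 12 microglia and macrophage genes were called higher and 1 lower. Of the 11 MG markers 5 were higher and 1 lower there. The part of these cell types and of cell division in the rises was not tested.

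To ask whether levels of the Wnt genes after injury differed with loss of *mych*, *mych*-/- MG were compared with Wt MG at 2 dpi. Without uninjured *mych*-/- MG this comparison does not measure a change in the response to injury. None of the 62 Wnt genes was called by edgeR, where 1.69% of all genes were, and the smallest adjusted p was 0.107, for *WNT10A*. The count over all genes moved with single libraries: 347 genes were called in all, 8 without the second and 53 without the third Wt 2 dpi library, 9 without the first and 28 without the third mutant library, 164 to 227 without an uninjured one, 982 without the first Wt 2 dpi and 1026 without the second mutant library. At an unadjusted p under 0.05 there were 7 Wnt genes, among 19.4% of all genes. DESeq2 called 3 of 61, *WNT10A*, *WNT8B* and *sfrp2l* (adjusted p = 0.00145, 0.0200 and 0.0313), where it called 8.72% of all genes. The median log2 difference was 0.19 over the Wnt genes and 0.03 over all genes. The genes named in what follows of this comparison were chosen after their values were seen.

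The 3 genes called by DESeq2 had no counts in any Wt 2 dpi library, as did *RSPO1* and *SFRP2*, which were tested and not called. In *mych*-/- MG *WNT10A* measured 1.39, 1.02 and 0.740 CPM and *WNT8B* 1.02, 0.185 and 0.299 CPM. The means were 23.8-fold and 11.4-fold above a floor of 3 counts in each Wt 2 dpi library. The fitted log2 differences were 9.04 (95% interval 3.2 to 14.88) and 7.98 (1.54 to 14.42), neither called by edgeR. The counts per library were few, and 27 of the 70 Wnt genes went between 0 and 20 or more counts within a single group. *sfrp2l* had a mutant library at 0 as well. The uninjured Wt libraries of *WNT10A* reached 1.55 CPM, and against them the mutant difference was 0.29 ± 1.78.

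Libraries of the genotypes did not overlap for 8 of 62 genes, 5 higher and 3 lower in *mych*-/-, where 9.28% and 14.5% of all genes did so. The 5 were *WNT10A*, *WNT8B*, *lgr6*, *FZD4* and *DKK3* ENSDARG00000103591, and the 3 were *dvl2*, *DVL3* ENSDARG00000015707 and *CTNNB1*. *lgr6*, an R-spondin receptor gene, measured 15.9, 8.56 and 12.8 CPM in uninjured Wt, 13.9, 21.0 and 13.2 at Wt 2 dpi and 27.6, 29.6 and 24.7 in *mych*-/-. The mutant libraries lay above all Wt libraries, by 0.76 on the log2 scale from Wt 2 dpi (95% interval 0.16 to 1.37, edgeR adjusted p = 0.165). The differences of the genes that were lower in the mutant were small: -0.52 (-0.95 to -0.10) for *DVL3*, -0.47 (-1.04 to 0.10) for *dvl2* and -0.28 (-0.63 to 0.08) for *CTNNB1* (edgeR adjusted p = 0.173, 0.350 and 0.385). *FZD4* differed by 1.81 (-0.07 to 3.69) and *FZD3* ENSDARG00000021664 by 0.63 (0.06 to 1.21). Some marker sums differed between the genotypes too: bipolar cell genes summed to 270 to 382 CPM at Wt 2 dpi and 484 to 569 in *mych*-/-, and ganglion cell genes to 194 to 284 and 292 to 449, with no overlap, although none of these genes was called. The sums of rod genes, of cone genes and of amacrine and horizontal cell genes overlapped between the genotypes. Of the 7 cell division genes 2 were called lower in *mych*-/-. The part of these cells in the differences of the 8 Wnt genes was not tested.

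For several genes that responded strongly to injury the genotype interval included 0 but left room for a difference in either direction. It ran from -0.50 to 0.63 for *FZD7* ENSDARG00000027589, from -0.51 to 0.88 for *ZNRF3*, from -0.79 to 0.74 for *TCF7L1* and from -0.93 to 0.39 for *fzd6*. For *dkk1a* it ran from -1.09 to 0.98 around a difference of -0.05. It ran from -1.26 to 1.55 for *RSPO3*, from -1.32 to 1.0 for *WNT5B* and from -1.05 to 0.9 for *tcf7l1b*. The interval of *WNT7B* was wider, -3.48 to 0.44 around -1.52 (edgeR adjusted p = 0.380), with 2 of its 3 mutant libraries below all Wt 2 dpi libraries. *AXIN2* and *LEF1* differed by 0.42 (-0.35 to 1.2) and 0.74 (-1.25 to 2.74), and *dkk1b* by 1.15 (0.01 to 2.29, edgeR adjusted p = 0.255).

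*mych*-/- MG at 2 dpi were last compared with uninjured Wt MG, a comparison in which injury and genotype both differ and which shares its uninjured libraries with the injury comparison. Of the 62 Wnt genes 16 were called, all of them higher, where 25.8% of all genes were called, 16.3% higher and 9.53% lower. The median log2 difference was 0.32 over the Wnt genes and -0.0029 over all genes. Libraries did not overlap for 30 genes, 21 above and 9 below, against 24.9% and 21.5% of all genes. *dkk1a* differed by 8.94 ± 0.75, *RSPO3* by 2.92 ± 0.70, *FZD2* by 2.43 ± 0.42, *TCF7L1* by 1.90 ± 0.36, *ZNRF3* by 1.69 ± 0.33 and *CTNNB1* by 0.73 ± 0.17 (SE; edgeR adjusted p = 1.03e-05, 0.00941, 0.00137, 0.00253, 0.00266 and 0.00671). Without the second uninjured library the *RSPO3* difference was 4.34, and without the first, when all uninjured counts are 0, the fitted *dkk1a* difference was 13.86. *lgr6* was called with a rise of 1.13 ± 0.28 (adjusted p = 0.0109) and *SFRP1* ENSDARG00000035521 with 1.64 ± 0.54 (0.0445). *AXIN2* stood just outside the threshold at 1.05 ± 0.36 (adjusted p = 0.0503), with all mutant libraries above the uninjured ones, and DESeq2 called it (0.0310). DESeq2 also called *TCF7L2* lower in this comparison (-0.67, adjusted p = 0.0182), and with upper quartile scaling edgeR gave 16 higher and 1 lower.

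Genes that were lower at Wt 2 dpi were not called here. The values against uninjured Wt were -0.47 ± 0.26 for *FZD3* ENSDARG00000021664, -1.08 ± 0.84 for *FZD4* and -0.72 ± 0.41 for *DVL1* ENSDARG00000055552 (edgeR adjusted p = 0.225, 0.390 and 0.233). The mutant libraries of *FZD3* still lay below all uninjured ones, whereas those of *FZD4* and *DVL1* overlapped them. Calls in this comparison that were lost on leaving out a library were *WNT5B* (any library but the third uninjured one, adjusted p 0.0537 to 0.117), *LGR4* (first or the third uninjured or first mutant library, 0.0772 to 0.108), *tcf7l1b* (first or second uninjured or first or second mutant library, 0.107 to 0.124) and *SFRP1* (6 of the 9 libraries, being the first and second uninjured, the third Wt 2 dpi and each mutant one, 0.0511 to 0.111).

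**Figure D4:**
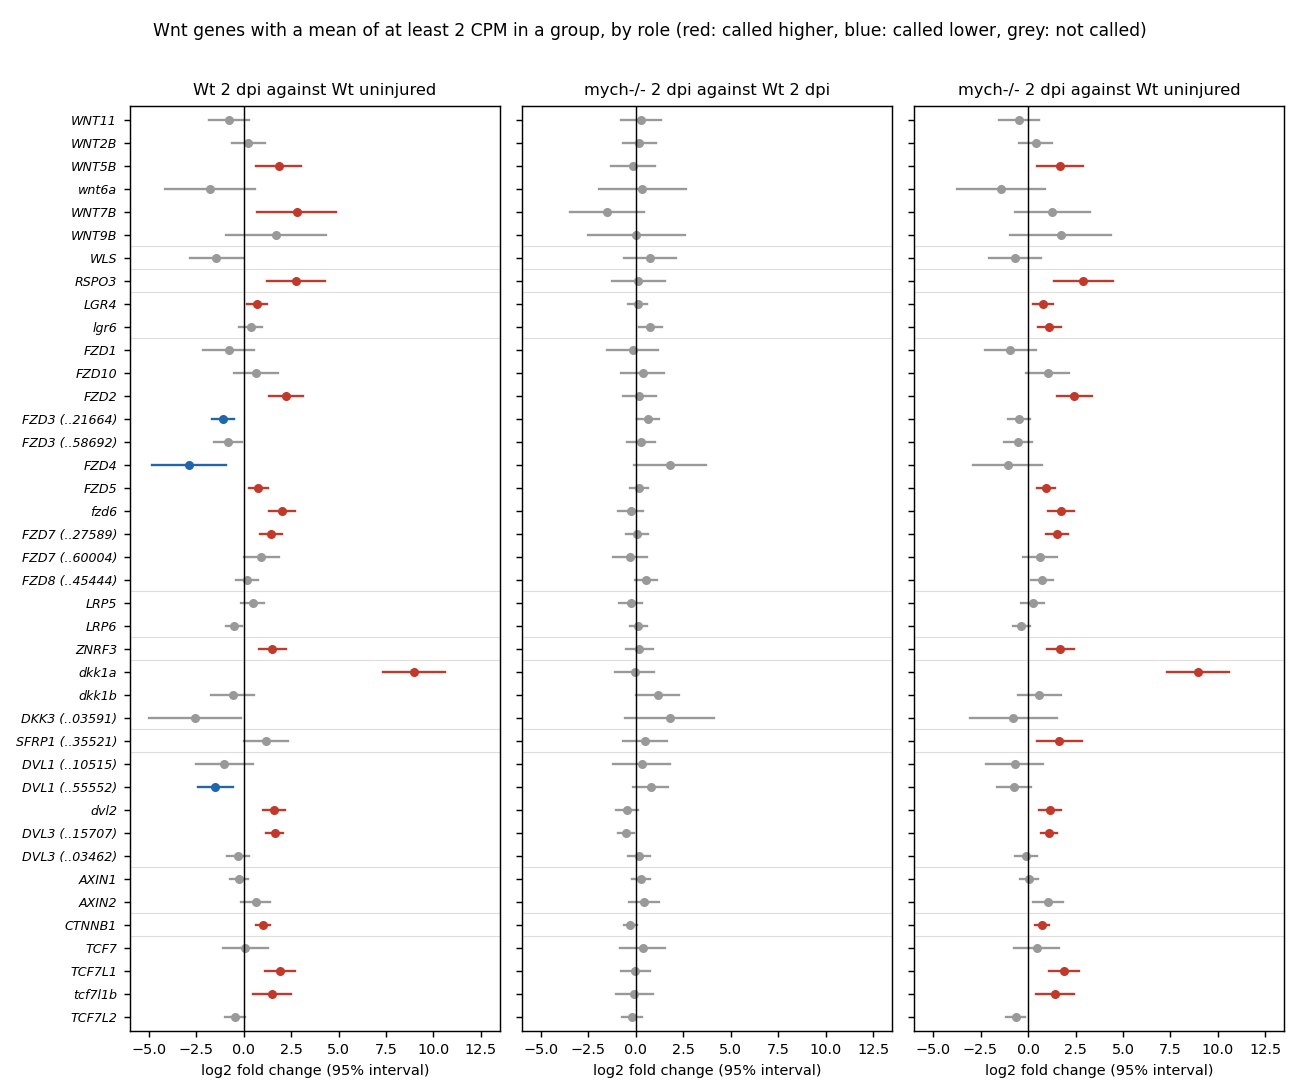
Log2 fold change with its 95% interval (x axes) of the 40 Wnt genes with a mean of at least 2 CPM in a group, ordered by role from ligands to Tcf factors (y axis), in the 3 comparisons; red is called higher, blue called lower and grey not called, by edgeR. dkk1a stands at 8.99 and 8.94 in the outer panels, and no gene is coloured in the comparison of the genotypes at 2 dpi.

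A further list of 80 genes, chosen by symbol, covered other parts of the pathway, and 77 of them were tested. It is not a full account of the pathway, and of the *PPP2R5* family it held only *PPP2R5A* and *PPP2R5B*. With injury 38 of 77 were called, 16 higher and 22 lower, around a median of -0.12, or 49.4% called where 42.1% of all genes were, 22.3% higher and 19.8% lower. In the sublist of the degradation complex, kinases and phosphatase subunits, 10 of 19 genes fell and 1 rose at Wt 2 dpi. Many of these falls were close to the threshold. The calls of *APC*, *APC2*, both *CSNK1G2* genes, *PPP2R5B*, *amer1* and *csnk1e* were each lost on leaving out 1 library or another (edgeR adjusted p 0.0501 to 0.148). In *mych*-/- against uninjured Wt edgeR called 0 of the 19 lower and 1 higher. Over all genes 9.53% were called lower and 16.3% higher in that comparison. The median of the sublist there was -0.17, and 4 of the 19 lay below uninjured Wt without overlap, against 21.5% of all genes. None of the 19 was called between the genotypes. Neuron marker genes fell at Wt 2 dpi (11 of 13 for rods, 11 of 11 for cones and 9 of 9 for bipolar cells). Their part in the falls of this sublist was not tested. *APC*, a scaffold that binds β-catenin, fell from 402, 324 and 277 CPM to 202, 117 and 123, with 213, 107 and 303 in *mych*-/-. Its Wt groups did not overlap, 2 mutant libraries lay below the uninjured ones and 1 within them, and the log2 change at Wt 2 dpi was -1.18 ± 0.35 (edgeR adjusted p = 0.0161). The *APC* call was lost without the first uninjured or the second or the third Wt 2 dpi library (0.0641 to 0.0684). *PPP2R5A*, a regulatory subunit of the phosphatase PP2A, had the largest fall of this sublist, from 36.1, 83.0 and 90.3 CPM to 6.97, 4.73 and 22.9, with 41.1, 31.8 and 26.3 in the mutant (-2.60 ± 0.54, edgeR adjusted p = 0.00253, and -3.58 without the third Wt 2 dpi library). *FBXW11*, a β-TrCP ubiquitin ligase component, was the one that rose (0.93 ± 0.17, edgeR adjusted p = 0.00107). The kinase genes *GSK3B* (-0.12 ± 0.23), *gsk3bb* (0.20 ± 0.42), *CSNK1A1* (0.25 ± 0.19) and both *GSK3A* genes (0.05 ± 0.17 and -0.04 ± 0.20) were not called. Other casein kinase genes were called lower: *CSNK1D* (-0.79 ± 0.19), *csnk1e* (-0.72 ± 0.23) and both *CSNK1G2* genes (-0.71 ± 0.21 and -0.54 ± 0.19). Their edgeR adjusted p were 0.00614, 0.0243, 0.016 and 0.0348, while *CSNK1G1* and *csnk1da* were not called.

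Of the non-canonical pathway genes 7 of 20 were called higher and 6 lower, where 22.3% and 19.8% of all genes were. The planar cell polarity cadherin gene *celsr1b* rose from 14.1, 10.1 and 21.4 CPM to 162, 224 and 110, with 110, 135 and 101 in *mych*-/-, a log2 rise of 3.44 ± 0.33 (edgeR adjusted p = 1.16e-05). *PTK7*, a co-receptor of this branch, rose by 1.97 ± 0.27 (edgeR adjusted p = 0.000148), from 18.3, 20.7 and 32.1 CPM to 95.2, 118 and 66.4. *PRICKLE2* ENSDARG00000020982 and the formin gene *DAAM2* fell by 1.78 and 1.74 on the log2 scale (edgeR adjusted p = 0.0121 and 0.00992), or by 2.5 without the first and 2.33 without the second Wt 2 dpi library, and the *PRICKLE2* call was lost without the third (0.0541). In *celsr1b*, *PTK7*, *PRICKLE2* ENSDARG00000020982 and *DAAM2* no injured Wt library overlapped an uninjured one. The second *PRICKLE2* gene, ENSDARG00000037593, overlapped between the Wt groups and was not called (-0.07, 95% interval -0.6 to 0.46).

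Among nuclear cofactors 3 of 16 rose and 4 fell, and among feedback and target genes 1 of 7 rose and 1 fell. Among ligand processing genes 2 of 5 rose, and among secreted or surface modulators 2 of 10 rose and 1 fell. Over all genes 22.3% were called higher and 19.8% lower. *CCND1*, the cyclin D1 gene and a Wnt target in several tissues, measured 11.6, 15.3 and 15.1 CPM in uninjured Wt, 535, 587 and 408 at Wt 2 dpi and 308, 359 and 375 in *mych*-/-. The 3 groups did not overlap and the log2 rise at Wt 2 dpi was 5.19 ± 0.24 (edgeR adjusted p = 1.05e-07). The median log2 change of the 7 feedback and target genes was -0.26. *NRCAM* was the 1 that fell (-1.35 ± 0.3, edgeR adjusted p = 0.00319). All 7 cell division genes were called higher too, and the part of cell division in the *CCND1* rise was not tested. *trabd2b*, which encodes a Tiki-type protease that inactivates Wnt ligands, had no counts in uninjured Wt, 1.03, 0.547 and 2.10 CPM at Wt 2 dpi and 1.77, 1.08 and 1.31 in *mych*-/-. Against a floor of 3 counts in each uninjured library, its mean level at Wt 2 dpi was 21.0-fold higher. This fold takes no account of the spread between libraries. The rise was called (edgeR adjusted p = 0.00259). *draxina*, a homolog of the secreted inhibitor Draxin, fell from 3.86, 5.90 and 5.75 CPM to 0.469, 1.3 and 0.375, and measured 0.786, 1.21 and 0.473 in *mych*-/- (-2.85 ± 0.72, edgeR adjusted p = 0.00706, and -3.61 without the second Wt 2 dpi library).

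**Figure D5:**
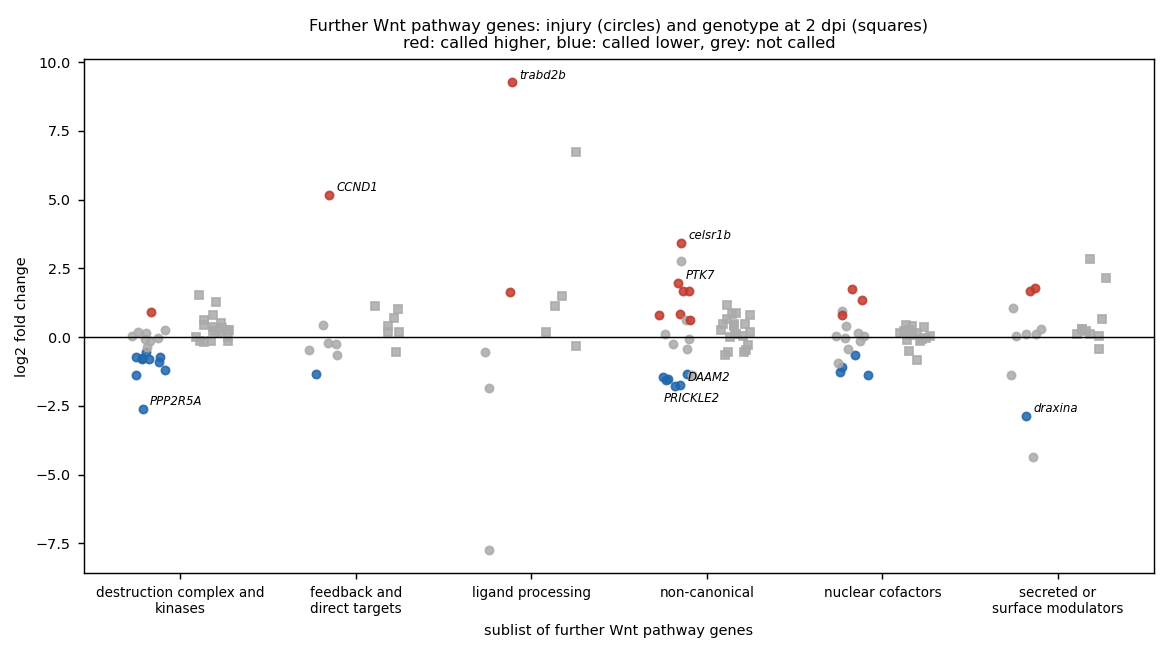
Log2 fold change (y axis) of the 77 further Wnt pathway genes tested, by sublist (x axis), with injury in Wt MG (circles) and between the genotypes at 2 dpi (squares), offset sideways for legibility; red is called higher, blue called lower and grey not called, by edgeR. CCND1 (5.19) and trabd2b (9.27) stand above the other circles, 10 of 19 circles of the degradation complex sublist are blue, and no square is coloured.

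Between the genotypes edgeR called none of these 77 genes, with 13 at an unadjusted p under 0.05 where 19.4% of all genes were, and DESeq2 called 4, where it called 8.72% of all genes: *PPP2R5A*, *PPP2R5B*, *NKD1* and *CBY1*. *NKD1*, a feedback inhibitor that binds Dishevelled, measured 26.5, 29.2 and 38.8 CPM in uninjured Wt, 19.5, 21.7 and 20 at Wt 2 dpi and 52.0, 55.0 and 26.9 in *mych*-/-. All mutant libraries were above the Wt 2 dpi ones, which lay close together, and the log2 difference was 1.13 ± 0.27 (edgeR adjusted p = 0.0588). *PPP2R5B* measured 21.4, 14 and 17.0 CPM at Wt 2 dpi and 37.7, 30.6 and 57.9 in *mych*-/-, a difference of 1.27 ± 0.30 (edgeR adjusted p = 0.0552). Both were called when low genes were left in the test (adjusted p = 0.0423 and 0.0362). *mych*-/- MG against uninjured Wt gave 22 calls among the 77 (28.6%), 16 higher and 6 lower, where 25.8% of all genes were called, 16.3% higher and 9.53% lower, and *CCND1* differed by 4.63 in that comparison (edgeR adjusted p = 2.94e-07).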

How the data were processed

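Libraries were grouped by genotype and treatment as labelled. The deposited table holds whole-number counts per Ensembl gene; the submitters' processing notes name cutadapt 2.3, FastQC 0.11.8, STAR 2.7.8a, RSEM 1.3.3, DESeq2, the zebrafish build GRCz11 and, with no role given, GRCh38, and whether the authors' counts are rounded estimates, the annotation release and the strand setting are not given in the sources used here, so reads of close paralogs may be shared. Symbols came from a names table covering 93.4% of IDs. Genes were filtered with filterByExpr, scaled by TMM and tested with edgeR 4.0.16 (R 4.3.3) by the robust quasi-likelihood F test in 1 fit of 9 libraries without covariates, with Benjamini-Hochberg adjustment over 20484 genes, and a biological coefficient of variation of 62.2%. CPM are TMM-scaled and not divided by gene length, so a share or ratio of counts between genes is compared between groups only, not read as relative abundance of the genes. DESeq2 1.42.0, other scalings, no filter, other fold thresholds, a replicate block and leaving out each library were alternatives. The fit was tested on simulated data. Named genes were those called between genotypes, the 12 largest called rises and falls with injury with a mean of at least 1 CPM, *LEF1*, *AXIN2*, *CTNNB1* and *WLS*, and the 4 largest rises and falls of the further list. *WNT10A*, *WNT8B*, *LGR4*, *FZD5*, *APC*, *APC2*, *amer1*, *CSNK1D*, *csnk1e*, *CSNK1G2*, *PPP2R5B*, *FBXW11*, *NRCAM*, *GSK3B* and uncalled genes given with values were named after their values were seen. The members and lists were chosen with earlier results of these data known. No sequences were used here.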

Additional observations from a re-analysis of the deposited data

How the results depend on the processing

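Of the Wnt genes called with injury, 12 of 21 were called under all 17 alternatives other than the fold thresholds, and 12 of 16 of those called in *mych*-/- against uninjured Wt, of which *CTNNB1* (0.73) and *FZD5* (0.96) miss a threshold of 1; 1 alternative, a dispersion that is not robust, was chosen after seeing the data. Between the genotypes edgeR's 0 calls became 3 with DESeq2, and 0 to 1 on leaving out 1 library, *DVL1* ENSDARG00000055552 being called without the second mutant library (1.17, adjusted p = 0.0469). The further genes gave 0 between the genotypes, 2 without a filter, 4 with DESeq2 and 0 to 1 on leaving out 1 library (*PPP2R5B* without the third uninjured, first Wt 2 dpi or second mutant library, *PPP2R5A* without the third Wt 2 dpi library and *NKD1* without the third mutant library). Above a log2 change of 1 they gave 25 calls with injury and 12 for *mych*-/- against uninjured Wt, where leaving out 1 library gave 14 (second uninjured) to 25. Scaling by library size alone shifted the median of all genes to 0.11 between the genotypes and 0.15 for *mych*-/- against uninjured Wt. It turned the further genes' 16 higher and 6 lower in the latter comparison into 16 and 2, and upper quartile scaling into 14 and 9. It also left 4 Wnt genes without overlap below uninjured Wt. Leaving out 1 library gave 9 to 14 for that count, and 5 to 12 above and 2 to 7 below between the genotypes, where fewer libraries leave less room for overlap. Differences close to 0 changed sign: between the genotypes *dkk1a* (0.05) and *TCF7L1* (0.04) with library size alone and *TCF7L1* with the upper quartile (0.02), and *LEF1* with injury (-0.06, upper quartile). On leaving out 1 library the genotype difference ranged from -0.22 to 0.22 for *dkk1a*, -0.02 to 0.33 for *RSPO3*, -0.06 to 0.57 for *FZD2*, -0.34 to 0.23 for *TCF7L1*, -0.24 to 0.32 for *tcf7l1b*, -0.15 to 0.41 for *ZNRF3*, -0.07 to 0.26 for *FZD7* ENSDARG00000027589, -0.17 to 0.81 for *trabd2b*, -0.18 to 0.22 for *PTK7* and -0.18 to 0.96 for *draxina*, and *LEF1* with injury from -0.33 to 0.29. The cause was not tested.

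Libraries of the same replicate number did not deviate together (correlations -0.075 to 0.09 over 9 pairs), so the numbers were not taken to pair samples. With a replicate block the Wnt genes gave 16 calls with injury (14 higher, 2 lower), 0 between the genotypes and 15 for *mych*-/- against uninjured Wt, and the further genes 38, 0 and 20. Of the 70 Wnt genes, 30 had 0 counts in at least 1 library, which limits their folds.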
